A study of Gasterosteus aculeatus with 62 samples.

Results

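The 200 genes described here are those whose RNA level varied least among brain libraries of male threespined sticklebacks (Gasterosteus aculeatus). They were selected on measured values, as the genes with the lowest standard deviation (SD) of log2(CPM + 0.5) over 61 libraries from the diencephalon and the telencephalon, where CPM, the count of a gene relative to the library total in gene models, was scaled by the TMM method (trimmed mean of M values). The choice was made among the 10855 Ensembl gene models with a mean of 10 to 300 CPM, out of 22295 gene models in all, so the members are 1.84% of the candidates. Their low spread is therefore a property of the choice and not a result.

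Each library came from 1 brain region of 1 of 31 nesting males, dissected 1 hour after a behavioural trial. Control males (n = 7) faced empty cages, courtship males (n = 8) a caged live female carrying eggs, predator males (n = 8) a caged model trout with odour cues, and tradeoff males (n = 8) a female and a model trout together, for whom the labels do not mention odour cues. The study asked how the brain responds when courtship and predation risk compete. The telencephalon library of predator male 42 stood apart from the others and took no part in the choice or in the comparisons, which leaves 7 predator males in that region. Its values are given separately.

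A gene with a steady RNA level is used in expression studies as an internal reference, against which the levels of other genes are expressed. Such genes often encode parts of the machinery that all cells need, for transcription, translation, protein turnover or energy supply, and their suitability is checked anew for each tissue and treatment. The telencephalon holds the pallium and subpallium and the diencephalon holds the thalamus and hypothalamus, so a reference for both has to hold its level between tissues of different cell makeup. In bulk tissue, fewer cells of a type and less RNA per cell cannot be told apart.

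Gene names were not at hand: 0 of the 200 members' identifiers had an entry in the RefSeq gene table, and the deposited files hold identifiers alone. The members are therefore given by Ensembl identifier without a function or a position. For the same reason the labelled regions were not checked against marker genes. Libraries held 26210818 to 51081300 counts in gene models (mean 35590184, SD 5351290, n = 62).

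The members lay at moderate to high levels within the window. Their mean level over the 61 libraries ranged from 24.2 to 290 CPM with a median of 89.4, against a median of 35.5 CPM for all candidates. The lowest was ENSGACG00000006824 at 24.2 CPM (SD 1.28, n = 61) and the highest ENSGACG00000014304 at 290 CPM (SD 15.2). Of 4671 candidates with 10 to 30 CPM, 1 was a member. Of 4543 with 30 to 100 CPM, 114 were members (2.51%), and of 1641 with 100 to 300 CPM, 85 were (5.18%). Low genes were thus nearly absent from the set.

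The depth behind the members was large. The smallest count of any member in any of the 61 libraries was 602 reads, and the members' mean counts ranged from 863 to 10301 reads per library. Counting error alone gave a median SD of 0.0257 log2 units for the members, which is 13.9% of their observed variance at the median (range 3.61% to 42.6%). For all candidates that share was 4.42% at the median. In candidates of 10 to 30 CPM the median counting SD was 0.0576, and their median observed SD 0.210. Most of the members' remaining spread was thus larger than counting error, which reads without molecular identifiers may understate.

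The members' SD ranged from 0.0489 to 0.0776 log2 units with a median of 0.0723. All candidates had a median of 0.184 and a highest value of 3.98. On the linear scale the members' coefficient of variation was 3.40% to 5.57%, and the library with the highest level exceeded that with the lowest by a ratio of 1.16 to 1.38. The candidates' median ratio was 1.78. The set has no gap at its edge. Just inside were ENSGACG00000016676 (SD 0.0776, 50.2 CPM) and ENSGACG00000013702 (SD 0.0776, 157 CPM), and just outside were ENSGACG00000016277 (SD 0.0776, 76.4 CPM) and ENSGACG00000019793 (SD 0.0777, 52.2 CPM).

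**Figure D1:**
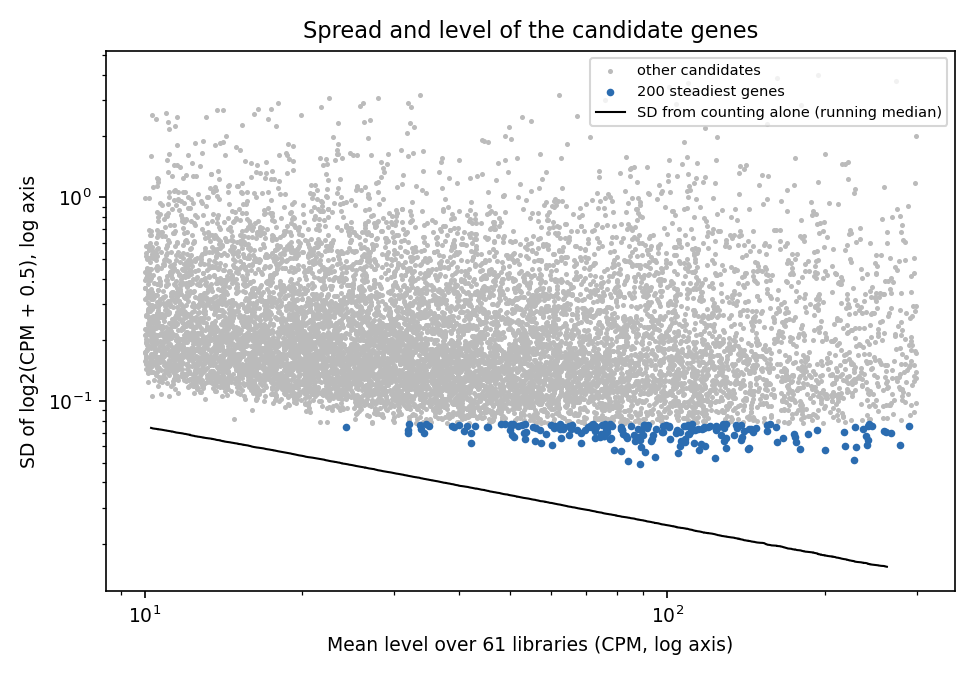
Each point is a candidate gene, placed by its mean level over 61 libraries (CPM, log axis) and its SD of log2(CPM + 0.5) (log axis). Blue points are the 200 members, with SDs of 0.0489 to 0.0776, and the line is the running median of the SD from counting alone, which falls as the level rises and lies below the members.

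The gene with the lowest spread was ENSGACG00000000589, with an SD of 0.0489 log2 units and 88.8 CPM (SD 3.02, n = 61). In the diencephalon its lowest, median and highest levels were 81.4, 86.9 and 92.7 CPM in controls, 84.6, 85.6 and 91.9 in courtship males, 84.6, 87.2 and 93.4 in predator males, and 86.0, 90.7 and 93.2 in tradeoff males. In the telencephalon they were 85.5, 89.3 and 93.4 CPM in controls, 83.7, 88.8 and 90.7 in courtship males, 87.4, 90.2 and 92.6 in predator males, and 87.8, 89.4 and 95.2 in tradeoff males. The ranges of all 8 groups overlapped. The raw counts of this gene ran from 2307 to 4596 with a median of 3083, and followed the depth of the libraries.

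Next in order came ENSGACG00000000699 (84.1 CPM, range 78.8 to 91.7) and ENSGACG00000009454 (227 CPM, range 201.8 to 240). The others that completed the 10 steadiest had means of 81.5 to 200.4 CPM. They were ENSGACG00000014096, ENSGACG00000010919, ENSGACG00000005183, ENSGACG00000003197, ENSGACG00000019558, ENSGACG00000010562 and ENSGACG00000020155, in order of rising SD from 0.0527 to 0.0577. Between the 2 libraries at the extremes, ENSGACG00000000699 differed by a ratio of 1.16 and ENSGACG00000020155 by 1.29. The latter exceeded the median ratio of the 200 members, 1.26, so that a low SD did not always go with a narrow range.

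**Figure D2:**
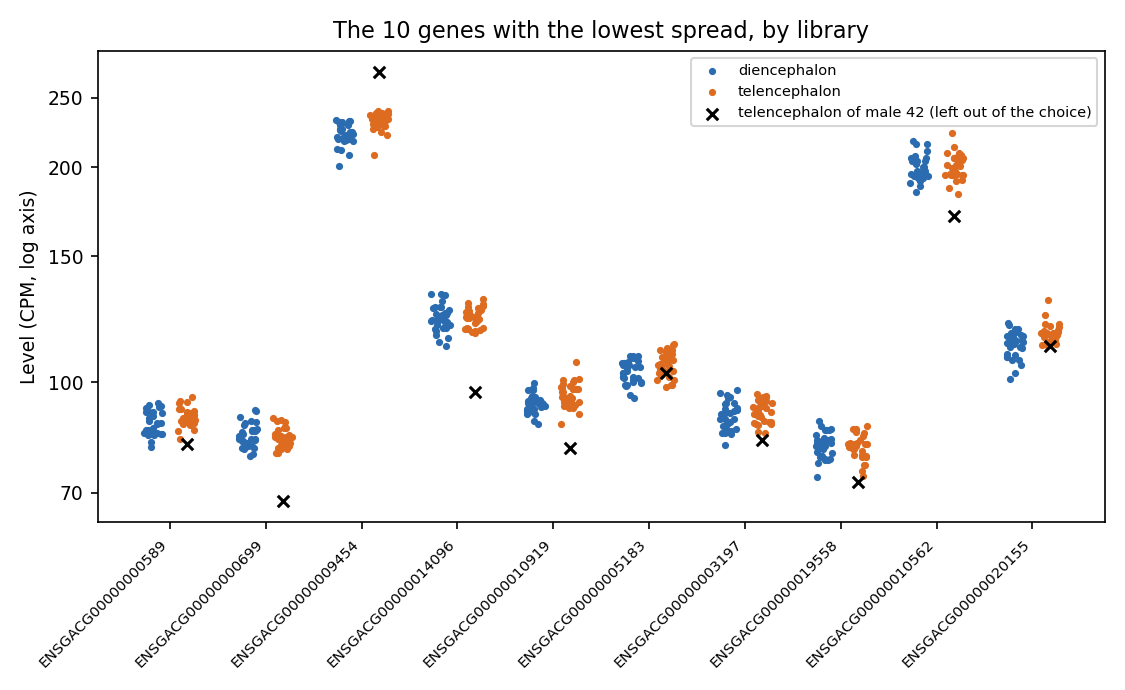
Levels of the 10 members with the lowest SD (CPM scaled by TMM over all 62 libraries, log axis), with 1 point per library, blue for the diencephalon and orange for the telencephalon. The points of both regions overlap for each gene, while the cross, the telencephalon library of male 42, lies below or above all others for several genes.

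Within a region the members were about as steady as over both. Their SD within the diencephalon had a median of 0.0688 (n = 31 libraries) and within the telencephalon 0.0638 (n = 30), against 0.135 and 0.140 for all candidates. A higher SD in the telencephalon was found for 78 of the 200 members (39.0%), and for 56.9% of the candidates. These values come from the libraries that chose the genes and are a description.

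At the median, the largest part of the spread left lay between males, a part that includes any treatment difference. In the 30 males with both regions, differences between males held a median of 60.6% of a member's sum of squares, the regions 6.45%, and the rest 28.7%. Males hold 49.2% of the degrees of freedom, regions 1.69% and the rest 49.2%. For all candidates the medians were 45.3% for males, 32.8% for the regions and 14.9% for the rest. After treatment means were subtracted, the levels of a member in both regions of the same male correlated at a median Pearson r of 0.38 over 30 males, and 185 of the 200 correlations were positive. For all candidates the median was 0.43, with 91.9% positive. The members thus kept a similar tie between the regions of a male as other genes, at a smaller scale. Both libraries of a male share the animal, its handling and its dissection, and the part of each was not tested.

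Pairs of members were mostly weakly correlated, but the mean of the 200 varied more than independent genes would give. That mean had an SD of 0.0169 log2 units against TMM, where independence would give 0.00498. Over the 19900 pairs of members the median Pearson correlation across the 61 libraries was 0.05, with a range of -0.61 to 0.71, and 60.98% were positive. The first principal component of the 200 genes held 12.6% of their variance and the second 8.91%. On the first, telencephalon libraries lay at -0.17 to 0.65 (median 0.30) and diencephalon libraries at -0.67 to 0.03 (median -0.28). The regions were therefore still visible in the steadiest genes, though their ranges overlapped.

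Genes chosen in some libraries were also read in libraries that had no part in that choice. When 200 genes were chosen by the same rule in the diencephalon alone, their median SD was 0.0598 there and 0.0688 in the telencephalon, where the candidates' median was 0.140. In the telencephalon all but 1 of the 200 lay below the candidates' median, 162 were among the lowest 10% and 80 among the lowest 200. When the choice was made in the telencephalon alone, the median SD rose from 0.0590 to 0.0692 in the diencephalon. All but 1 of these 200 were also candidates over both regions, and each of those lay below the candidates' median there, 79 of them among the lowest 200.

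The same reading was made across treatments. The 200 genes chosen in the control libraries alone had a median SD of 0.0616 there and 0.0854 in the 47 libraries of the other treatments, where the candidates' median was 0.184. All but 1 of the 200 lay below that median, and 60 were among the lowest 200. The control libraries and the other 47 both hold both regions. Choice in the controls thus also favoured genes alike in the regions, and region differences add to the candidates' 0.184. Within a region the candidates' median was 0.135 (diencephalon) and 0.140 (telencephalon). Steadiness carried over as a class from region to region and, with this limit, from controls to the other males, while the exact list did not. Of the 200 members, 78 were chosen again from the diencephalon alone, 109 from the telencephalon alone and 86 from the controls alone. The regions came from the same males, so the reading across regions is not of other animals.

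The comparison of the regions asked what difference between telencephalon and diencephalon was left in these genes. Differences were small, with log2 fold changes (telencephalon over diencephalon) of -0.08 to 0.13 and a median absolute value of 0.036, against 0.25 for all genes tested. Even so, 84 of the 200 members passed an adjusted p of 0.05, 66 with more RNA in the telencephalon and 18 with more in the diencephalon (edgeR quasi-likelihood test, Benjamini-Hochberg adjustment over 19294 genes). This fit did not use the pairing of the regions within males, and the region values of single genes below come from it. Of all genes tested 70.2% passed, 33.7% with more in the telencephalon and 36.5% with more in the diencephalon, and of the candidates 76.6%. The choice limits both the region difference and the error it is tested against, so nothing is read from the members' share.

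Among the called members the median difference was 4.49%, with a range of 2.55% to 9.54%. The 95% interval of the region difference lay within 0.2 log2 units of 0, a change of 14.9%, for all 200 members and for 24.0% of all genes tested. The low spread over both regions that chose the members limits the difference and narrows these intervals. The members' count is therefore a description. With 30 and 31 libraries, differences of a few percent passed the test, so a call here does not mark a large difference. The scaling and the libraries used moved the members' values by a comparable amount, as given next.

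The split of the calls by direction depended on the scaling. With library sizes taken from the 200 members, 85 members passed, 41 with more in the telencephalon and 44 with more in the diencephalon. With no filter on low counts, which also changes the genes that set the TMM factors, 87 passed, 53 and 34. Without the telencephalon libraries of control males 12 and 30 as well, 110 passed, 100 and 10. With the male as a block, in the paired fit, 112 passed, 80 and 32, and with male 42 included 75 passed, 61 and 14. In the same order, 13525 of 19294, 13956 of 21865, 13839 of 19450, 14929 of 19294 and 12861 of 19321 genes tested passed. Of those, 44.9%, 46.1%, 49.7%, 47.3% and 49.5% had more in the telencephalon, against 48.0% in the main fit. The members' median log2 fold change moved between 0.00 and 0.04 over these fits, which is comparable to the differences themselves, and a direction common to the members is therefore not given.

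The largest region difference was that of ENSGACG00000014304, the most abundant member. Its lowest, median and highest levels were 262, 276 and 302 CPM in the 31 diencephalon libraries (mean 278, SD 8.75) and 285, 302 and 320 CPM in the 30 telencephalon libraries (mean 302, SD 9.40). The ranges overlapped between 285 and 302 CPM, where the highest diencephalon value was that of tradeoff male 39, and the other tradeoff males reached 281. Within controls and within predator males the regions did not overlap, with 262 to 283 against 285 to 316 CPM and 268 to 291 against 298 to 318 CPM. Within courtship males they overlapped, with 271 to 292 against 287 to 310 CPM, as they did within tradeoff males. By edgeR the log2 fold change was 0.13 with an SE of 0.0134 and an adjusted p of 3.06e-13. Second was ENSGACG00000013337, with 96.3 to 111 CPM in the diencephalon (median 102) and 103 to 116 in the telencephalon (median 111), which edgeR put at 0.11 log2 units with an SE of 0.0145 and an adjusted p of 6.18e-10.

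Higher in the diencephalon, ENSGACG00000005432 had 116 to 143 CPM there (median 132) and 115 to 134 in the telencephalon (median 122), which edgeR put at -0.08 log2 units with an SE of 0.0177 and an adjusted p of 2.73e-05. ENSGACG00000016676 had 45.8 to 54.9998 CPM in the diencephalon (median 51.8) and 44.8 to 55.9 in the telencephalon (median 48.6), also -0.08 log2 units with an SE of 0.0176 and an adjusted p of 8.29e-05 (edgeR). For both genes the ranges of the regions overlapped. Of the 10 steadiest members, 4 passed the test for region, against 70.2% of all genes tested. The choice limits this count, and nothing is read from it. Of these 4, ENSGACG00000009454 differed most, by 0.06 log2 units with an SE of 0.0133 and an adjusted p of 3.47e-05 (edgeR). ENSGACG00000000589 had 0.03 with an SE of 0.0139 and an adjusted p of 0.0518 (edgeR).

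**Figure D3:**
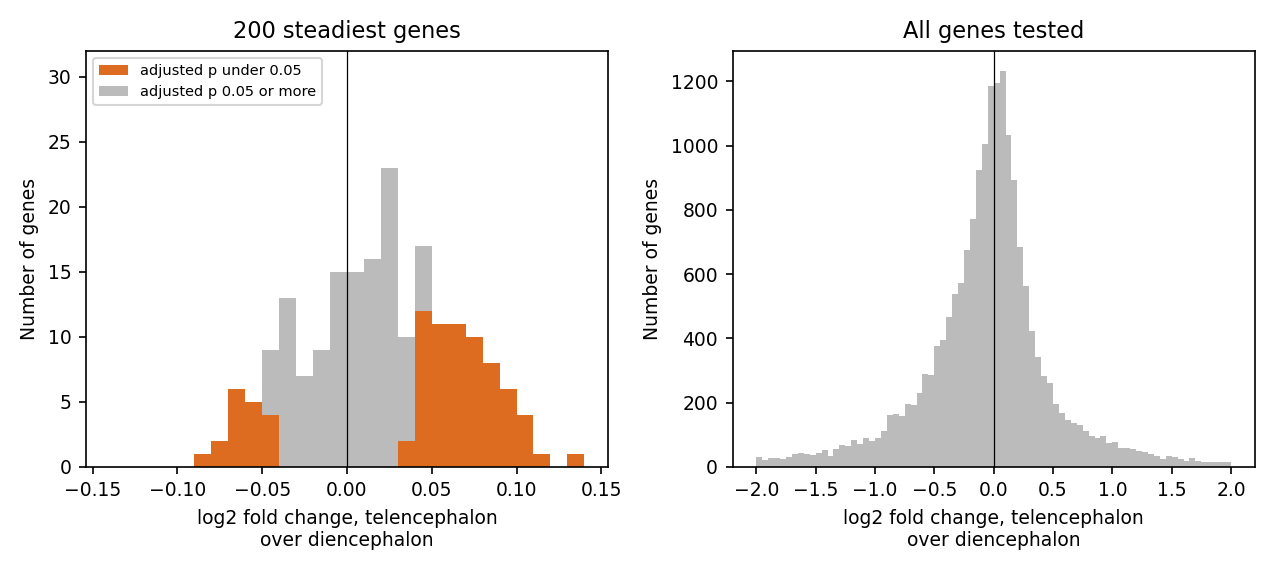
Log2 fold change of the telencephalon over the diencephalon for the 200 members (left, number of genes per bin, orange where the adjusted p was under 0.05) and for the genes tested (right, 18585 genes drawn and 709 beyond 2 log2 units in either direction not drawn). The axes differ in scale, since the members lie within -0.08 to 0.13.

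The treatment comparisons asked whether the stimuli moved these genes. No member passed in any of them. The choice used the spread over all 4 treatments and so limited these differences beforehand, and nothing is read from the counts of members. In the diencephalon, 0 of 200 passed the test for any difference among the 4 treatments, as did 0% of 18942 genes (edgeR quasi-likelihood test, Benjamini-Hochberg adjustment). At an unadjusted p under 0.05 were 4 members (of all genes, 3.90%). In the telencephalon, 0 members passed and 5 had an unadjusted p under 0.05, where 0.00535% of 18687 genes passed and 7.89% had an unadjusted p under 0.05. DESeq2 also called 0 members in both regions, with 7 in each at an unadjusted p under 0.05, while of all genes it called 8 in the diencephalon and 21 in the telencephalon.

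Each treatment was also set against the empty cages. In the diencephalon 0 members passed for courtship, predator or tradeoff, like 0% of all genes in each (edgeR). Before adjustment 4, 4 and 3 members had p under 0.05, where all genes gave 4.54%, 3.18% and 3.75%. In the telencephalon 0 members passed for courtship (0% of all genes), predator (0.0214%) or tradeoff (0.00535%). There 4, 3 and 6 members had an unadjusted p under 0.05, where all genes gave 5.40%, 8.44% and 3.55%. These counts changed in a fit that left out control males 12 and 30, the only controls left out in any fit. Without them 1, 0 and 9 members had an unadjusted p under 0.05, as did 487, 535 and 1947 of 18815 genes. Among all genes tradeoff and not predator then gave the most. The choice limited the members' counts, and nothing is read from their order. With male 42 included the counts were 1, 3 and 2 members and 555, 671 and 420 of 18714 genes. DESeq2 called 0 members in these 6 comparisons, with 3 to 6 at an unadjusted p under 0.05. Of all genes (18942 in the diencephalon, 18687 in the telencephalon) it called 0 to 13, with 651 to 1695 at an unadjusted p under 0.05. The 3 comparisons of a region share the control libraries and are not independent.

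The estimates were narrow. Over the 6 comparisons the members' log2 fold changes ran from -0.11 to 0.10, and 1 member differed by more than 0.1 log2 units in 1 of them. The members' median standard error was 0.0388 to 0.0389 in the diencephalon comparisons and 0.0374 to 0.0386 in the telencephalon, against 0.0960 to 0.105 for all genes. The 95% interval of every member lay within 0.2 log2 units of 0 in all 6, which was so for 26.0% to 34.4% of all genes. The low spread that chose the genes is what makes these intervals narrow.

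In the diencephalon the smallest p for any treatment difference was that of ENSGACG00000005605, an abundant member of 262 CPM. Its lowest, median and highest levels were 246, 257 and 272 CPM in controls, 249.96, 259 and 274 in courtship males, 261, 276 and 299 in predator males, and 252, 263 and 282 in tradeoff males. Predator males had the highest median, and all 4 ranges overlapped. The log2 difference of predator males from controls was 0.10 (SE 0.0377), and edgeR's quasi-likelihood test for any difference gave an adjusted p of 1.00. In the telencephalon the same difference was 0.02 (SE 0.0386).

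In the telencephalon the smallest p was that of ENSGACG00000013329. Its lowest, median and highest levels were 111, 116 and 119.6 CPM in controls, 118, 124 and 133 in courtship males, 114, 119.9 and 124 in predator males, and 109.95, 115 and 119.6 in tradeoff males. Courtship males had the highest median and overlapped the controls. Their log2 difference was 0.08 (SE 0.0298), and edgeR's quasi-likelihood test for any difference gave an adjusted p of 0.564. In the diencephalon the difference of courtship males from controls was 0.03 (SE 0.0359).

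Whether a treatment difference itself differed between the regions was tested with both regions in a single edgeR fit. This gave 0 members and 0% of all genes past the threshold. Before adjustment 2 members had p under 0.05, against 3.88% of all genes. Like the region fit above, this fit did not use the pairing of the regions within males, although the levels in both regions of a male were correlated. It treated the libraries of a male as independent, and no paired fit is given for this test. These counts therefore do not decide whether treatment differences were alike in the regions. This test was not run by another tool.

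The telencephalon library of predator male 42 is the only library that the choice did not use. There the members were not steady. Their absolute difference from the mean of the other 30 telencephalon libraries had a median of 0.232 log2 units, where each of those 30, set against the rest, gave 0.0305 to 0.0576. A member differed by more than 0.2 log2 units in 118 of 200 cases, by more than 0.5 in 18 and by more than 1 in 0. Of the candidates, 74.95% differed by more than 0.2, 44.7% by more than 0.5 and 19.4% by more than 1, with a median of 0.442. The members thus moved less than the candidates in this library, and more than in any other telencephalon library. The other 30 took part in the choice, which favoured small departures in them, so this contrast is in part built in and is a description.

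The direction was mixed, with 77 members above and 123 below the mean of the others. Highest was ENSGACG00000005605, with 403 CPM in male 42 and 236 to 279 CPM in the other telencephalon libraries, a difference of 0.64 log2 units. Lowest was ENSGACG00000013741, with 59.3 CPM against 85.6 to 98.9, a difference of -0.63. Outside the range of all 61 other libraries lay 130 of the 200 members, a larger share than the 45.4% of the candidates, with ranges that the choice had made narrow. Its depth, 36463347 counts, lay within the range of the others. With 1 library there is no test, and what sets it apart was not tested.

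**Figure D4:**
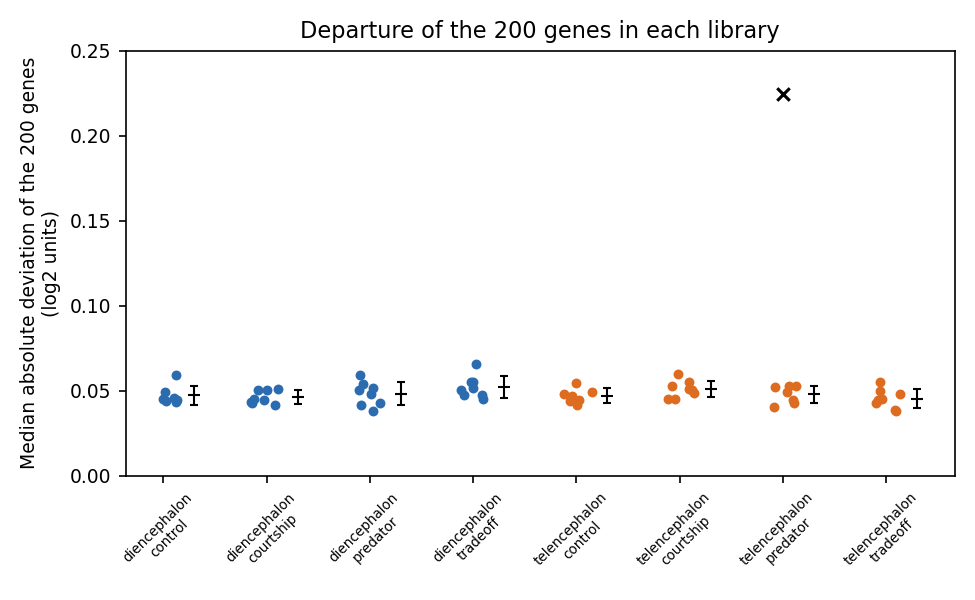
Median absolute difference of the 200 members from their mean over 61 libraries (log2 units, CPM scaled by TMM over all 62), with 1 point per library by group, and the group mean and SD (bars) beside the points. The 61 libraries lie at 0.0382 to 0.0656, and the cross, the telencephalon library of male 42, at 0.224.

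The members were then used as reference genes. The size of a library by the members was the mean of their log2 counts. It was compared with the size by TMM, which takes a trimmed mean over the gene models. These sizes differed with an SD of 0.0169 log2 units over 61 libraries, from -0.0405 to 0.0342, that is from -2.77% to 2.40%. TMM differed from relative log expression (RLE, the size factors of DESeq2) with an SD of 0.00989, and from the plain library total with 0.0301, whereas the members differed from RLE with 0.0224 and from the total with 0.0256. The choice used TMM, so that its closeness to the members is in part built in.

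By region the members' size minus the TMM size averaged -0.00503 log2 units over 31 diencephalon libraries (SD 0.0181) and 0.00520 over 30 of the telencephalon (SD 0.0141). The regions differed by 0.0102 with the mean over members and by 0.0201 with the median over members. When the members were instead chosen with RLE size factors, that difference was -0.00139, of the opposite sign. By treatment the group means ran from -0.00821 in diencephalon controls (SD 0.0130, n = 7) to 0.0132 in telencephalon courtship males (SD 0.0138, n = 8). No group mean departed from 0 by more than its SD. That SD is the spread of single libraries and not the error of a group mean, so whether a group departs from 0 was not tested.

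Smaller panels of the steadiest members were set against TMM in the same libraries, which is a description, since rank and comparison both rest on TMM there. The steadiest gene alone differed from TMM with an SD of 0.0492, the steadiest 3 together with 0.0320, 10 with 0.0240, 20 with 0.0185 and all 200 with 0.0169. Against the size by all 200, the SD was 0.0199 for 10 genes, 0.0142 for 20 and 0.00802 for 50, which are themselves among the 200. The members of odd and of even rank, 100 each, gave sizes that differed from each other with an SD of 0.00953 and by at most 0.0273. Were the members independent of each other, the mean of 200 would vary with an SD of 0.00498, against the 0.0169 observed.

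Ratios between members need no scaling at all. Over the 19900 pairs the SD of the log2 ratio of counts was 0.0517 to 0.137, with a median of 0.0970. The steadiest pair was ENSGACG00000007706 and ENSGACG00000010546, a pair picked after its values were seen. Their count ratio lay between 1.47 and 1.71 over the 61 libraries, with a median of 1.59 in the diencephalon and 1.60 in the telencephalon. In the telencephalon of male 42 it was 1.65, within that range, although ENSGACG00000007706 was lower there by 0.51 and ENSGACG00000010546 by 0.56 log2 units than in the other telencephalon libraries.

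In the telencephalon of male 42 the members gave a size that differed from its TMM size by -0.0700 log2 units, or -4.74%, with TMM over all 62 libraries. In the other 61 libraries the same difference ran from -0.0472 to 0.0469. The members took 1.85% of all counts in that library and 2.006% to 2.17% in the others.

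**Figure D5:**
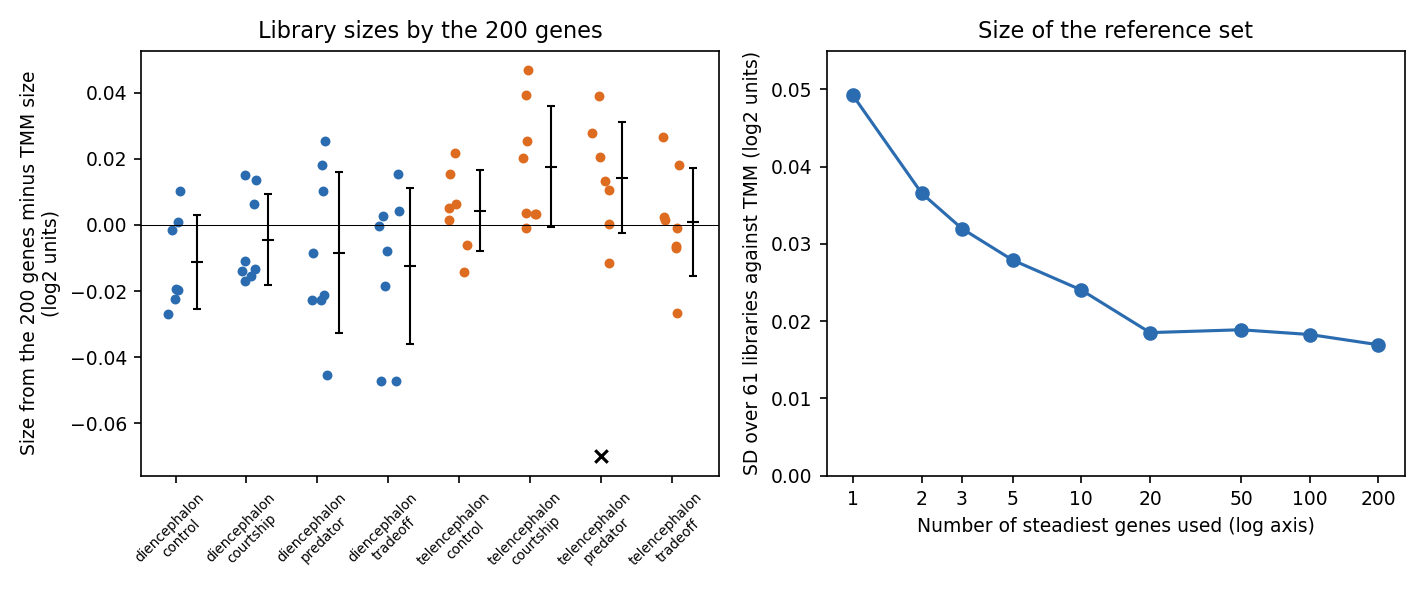
Left, library size by the 200 members minus size by TMM over all 62 libraries (log2 units), with 1 point per library by group, and the mean and SD (bars) without male 42, whose telencephalon library is the cross at -0.0700. Right, SD over 61 libraries of the size by the steadiest 1 to 200 members (log axis) against TMM, which falls from 0.0492 to 0.0185 at 20 genes and is 0.0169 at 200.

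Scaling by the members was then tried in the tests themselves. Between the regions 13525 genes passed, against 13540 with TMM, 6066 of them higher in the telencephalon against 6496 (edgeR quasi-likelihood test). For predator against control in the telencephalon 5 genes passed, against 4, and for any treatment difference there 3, against 1. These counts moved with the libraries. With TMM and without control males 12 and 30, 1 gene passed for predator, 4 for tradeoff and 35 for any treatment difference. With male 42 included, 0 passed for predator, 0 for tradeoff and 3 for any difference, and with no filter on low counts 6 passed for any difference. ENSGACG00000010476, which is no member and passed there, had a log2 fold change of 1.03 by either scaling (SE 0.150 and adjusted p = 0.00280 with TMM, adjusted p = 0.00251 with the members, edgeR). In tradeoff males its log2 fold change from control was 1.02 by either scaling, with adjusted p of 0.00222 and 0.00165 by edgeR. Both calls were lost with male 42 included. It passed for any treatment difference in the telencephalon by both scalings as well.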

How the data were processed

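Per the labels' protocols, polyadenylated RNA of each region was made into stranded libraries and sequenced in a single lane. The authors deposited unnormalized counts of reads for each gene model and library, and used STAR and HTSeq per the submitters' processing notes. Not given in the sources used here are versions, genome build, annotation and strand setting, so overlapping antisense genes may share counts. Tallied reads in no gene model (44.5% on average), ambiguous (0.705%) or aligned to several places (10.3%) were left out of library sizes.

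The members and lists were chosen with earlier results of these data known. Gene lists by symbol were not tested, since 0 of 22295 identifiers matched a name. Named genes were the 10 members of lowest SD, those at the edge of the set, the lowest and highest level, the extreme calls for region, the smallest p for treatment per region, and the extremes in male 42.

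The choice used TMM factors over all 22295 models. Tests used edgeR 4.0.16 in R 4.3.3 with filterByExpr (minimum count 10, minimum total 15), TMM over the genes kept, and robust quasi-likelihood fits, with a fit of 61 libraries in 8 groups for the regions and a fit per region for treatments. The tests were checked on simulated data for the gene choice and the unpaired region comparison only. Those data held independent libraries and region changes larger than the members' differences. Their steady genes varied by counting error alone and all other genes by more, whereas the real set has no gap at its edge. That check therefore does not tell how exact the choice is here. The treatment and paired fits were not simulated. Alternatives used DESeq2 1.42.0, other scalings, filters and libraries. The male number in the labels pairs the regions of the same animal. Deviations from treatment means correlated within males at a mean of 0.407 (-0.0387 to 0.641), and between males at -0.0138. No replicates were pooled, and each library is 1 animal's region.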

Additional observations from a re-analysis of the deposited data

Results flagged for a closer look

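In each group of 7 or 8 libraries the highest or lowest was set against the rest. Chance gives about 1 in 20 such groups, and 12 of 176 stood out. The groups share libraries and are not independent, so nothing is read from this share. The cases are listed as values and were not tested further. The telencephalon library of predator male 42 stood out in its size by the members (-0.0700 log2 units against TMM, others -0.0115 to 0.0392). It also stood out in the median departure of the members (0.224, others 0.0403 to 0.0527) and in their share of counts (1.85%, others 2.006% to 2.06%). This library took no part in the choice, which favoured small departures in the others.

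Control male 12 stood out 4 times. ENSGACG00000013702 was high in both of its regions, with 188 CPM in the diencephalon (other controls 149 to 158) and 187 CPM in the telencephalon (other controls 147 to 159). ENSGACG00000009454 was low in its telencephalon, at 209 CPM (other controls 233 to 237). The median departure of the members was 0.0590 in its diencephalon library (other controls 0.0433 to 0.0494).

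Courtship male 21 was high in the telencephalon for ENSGACG00000010919 (107 CPM, others 92.9 to 99.0) and ENSGACG00000020155 (130 CPM, others 113 to 121). ENSGACG00000010919 was also high in the diencephalon of predator male 42 (98.5 CPM, others 91.0 to 93.6). In the diencephalon of tradeoff males, ENSGACG00000016676 was low in male 46 (45.8 CPM, others 49.9 to 53.3) and ENSGACG00000014304 high in male 39 (302 CPM, others 268 to 281).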

How the results depend on the processing

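Of the 200 members, at least 149 were chosen again with other size factors (RLE 176, upper quartile 175), all 62 libraries (149), other pseudocounts, other level windows, the variance beyond counting (170) or all gene models (194, with 6 models that are not Ensembl ones). Fewer were chosen again without a scaling factor (126), by the SD within the 8 groups (100), or from the diencephalon (78), the telencephalon (109) or the control libraries (86) alone. Members called for region numbered 75 to 112 over 7 alternatives, with 112 under the replicate block, in the paired fit, which was within 1.5 times the 84 reported. All genes called numbered 12861 to 14929. The counts of members called for treatment were 0 under every alternative run, which were other scalings, no filter and DESeq2 in both regions and, in the telencephalon, male 42 included or control males 12 and 30 left out. These alternatives called 0 to 35 of all genes, of 18687 to 21759 tested. The choice limited the members' counts, and nothing is read from them. The departure in the telencephalon library of male 42 was 0.288 without a scaling factor, against 0.232, and 0.229 and 0.238 otherwise. Candidates of 10 to 30 CPM had a median counting SD of 0.0576, against 0.0776 at the edge of the set and a median observed SD of 0.210, and the part of depth in the choice was not tested. The size of the members in the telencephalon minus that in the diencephalon was 0.0102 with the mean and 0.0201 with the median over members.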
